A study of Zea mays with 229 samples.

Results

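The maize gene Zm00001d003176 is 1 of 23 regulators in a TARGET experiment, and the genes described here are its 343 targets that are not also targets of MYB56. They were chosen from the authors' deposited table of edges, in which each row pairs a regulator with a gene listed as its target. The regulator has 1870 distinct targets (9.45% of all 19787 listed genes) and MYB56 has 2063 (10.4%). They have 1527 targets in common, and the 343 targets outside the MYB56 list are what remains. These numbers follow from the choice and are given as a description.

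TARGET introduces a plasmid with a transcription factor into protoplasts, plant cells without walls, and reads the response of the genome by RNA sequencing. The protoplasts came from leaves of dark-grown B73 seedlings and received 1 of 23 factor plasmids or the empty p1107 vector, each with or without nitrogen. Transfected cells were sorted by red fluorescence, so the libraries describe cells that took up a plasmid after wall digestion, and not an intact leaf. The labels list 152 factor libraries and 77 empty vector libraries in 11 batches, 114 without and 115 with nitrogen, with 2 to 4 libraries per plasmid, batch and nitrogen condition.

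The titles tie 20 of the 23 regulators to a plasmid. Zm00001d003176 is not among them, and neither are Zm00001d032024 and Zm00001d033859, so these 3 are given by identifier and their batch and family are unknown. The plasmids without an identifier in the titles are KN1, NLP3 and ZmMYB38. KN1 stood in the batch of GLK44 and MYB21 with 6 libraries, NLP3 in the batch of MYB56 with 6 libraries, and ZmMYB38 in 2 batches with no other factor, with 12 libraries. If the 3 identifiers belong to these 3 plasmids, Zm00001d003176 can share empty vector libraries of its own batch with GLK44, MYB21 or MYB56 and with no other matched factor. Whether it does cannot be told apart from the labels.

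A transcription factor binds short DNA motifs near genes and raises or lowers their transcription. One factor often acts on genes of further factors, so in general genes can respond to a factor directly or indirectly. The deposited identifiers do not say which listed targets are direct. Among the families in the series, WRKY and NAC factors are best known in plants for stress, defence and senescence, MYB factors for secondary metabolism and development, and Golden2-like factors for chloroplast development. Maize leaf cells use such factors to adjust photosynthesis and nitrogen assimilation.

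The deposited table holds identifiers only. It has no level, fold change, direction, p-value, nitrogen condition, batch or library beside an edge, so a target may have been higher or lower with the factor, and no value per library can be shown. Which genes lay just inside or outside the authors' threshold is likewise not in the table. All counts below are full counts over the lists, with no error to attach, and no test was made. The reference table of maize genes is for a later assembly than the one named in the labels and matched 0 of the 343 identifiers, so apart from regulators named through the sample titles the genes are given by identifier, without a function.

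The rows of Zm00001d003176 form 2 separate stretches. The longer has 1335 genes, all of them also in the MYB56 list. The shorter has 535 genes, of which 192 are also in the MYB56 list. All 343 targets outside the MYB56 list therefore stand in the shorter stretch. That stretch opens with Zm00001d003176 itself at row 1. Reads from the plasmid may be counted under that gene. Plasmid reads and autoregulation cannot be told apart from identifiers alone. The other 342 genes are without this ambiguity.

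Members of the set thinned out towards the top of the stretch. With its rows divided into 3 parts of about equal size, targets outside the MYB56 list made up 89 of 179 rows (49.7%) in the top part, 118 of 178 (66.3%) in the middle part and 136 of 178 (76.4%) in the bottom part. No header or label says how the rows were ordered. The first gene after the regulator's own was Zm00001d017095 at row 2, listed for 12 of the other 21 regulators. The last was Zm00001d047661 at row 535, listed for 4 of them.

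Among the 343 targets are 4 of the 22 other regulators, NAC5, WRKY107, MYB121 and Zm00001d032024. Only these targets outside the MYB56 list are known here to encode regulators, since the other genes carry no annotation. Zm00001d032024 stood at row 24 of the stretch, WRKY107 at row 70, NAC5 at row 166 and MYB121 at row 510. NAC5 was an often-listed gene, found in 15 of the 21 lists other than those of Zm00001d003176 and MYB56. Zm00001d032024 was found in 13 of these lists and MYB121 in 11. WRKY107 was found in fewer, 3 of the 21, those of G2, bHLH92 and WRKY107. Over all listed genes the median was also 3. Each of the counts for these 4 regulators includes the list of the regulator itself, as do all counts over the 21 lists given here. In that list, reads from the plasmid can be counted under the regulator's own gene. In the opposite direction, 3 of these 4 list Zm00001d003176 as their own target, namely NAC5, MYB121 and Zm00001d032024, while WRKY107 does not.

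The full list of Zm00001d003176 holds 10 of the 22 other regulators, and 9.45% of all listed genes. The remaining 6, which are EREB115, GLK44, MYB56, MYB81, MYBR3 and Orphan42, also stand in the MYB56 list. GLK44 at row 16 and MYBR3 at row 12 stood in the shorter stretch, ahead of all 4 regulators outside the MYB56 list. EREB115, MYB56, MYB81 and Orphan42 stood only in the longer stretch, whose 1335 genes are all in the MYB56 list. Their place among the targets of Zm00001d003176 rests on that longer stretch. The regulator's own gene was a target of 8 others, GLK44, HB6, MYB121, MYB34, NAC5, WRKY36, Zm00001d032024 and bZIP9. Of these, 4 are not targets of Zm00001d003176 in return, HB6, MYB34, WRKY36 and bZIP9. Genes of the 23 regulators stood in 0 (Zm00001d033859) to 16 (HB6) lists other than their own. How many regulators each other list holds was not counted. The counts of regulators among the targets are therefore not shown to be particular to Zm00001d003176.

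Most of the 343 targets were shared with many other regulators. The number of the other 21 regulators that list a target had a median of 10, with quartiles of 6.5 and 12.5 and a range of 0 to 19. Over all listed genes the median was 3. Of the 343 targets, 125 (36.4%) were listed for at least 12 of the other 21 regulators, against 1541 of all listed genes (7.79%). At least 8 listed 229 of them (66.8%), against 20.2% of all listed genes. Of the 7203 possible edges from the other 21 regulators to these genes, 3221 (44.7%) were in the table, against 21.3% for all listed genes.

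The 192 genes of the same stretch that are also MYB56 targets were shared more widely still. Their median was 12 other regulators, and 110 of them (57.3%) reached at least 12. The 1335 genes of the longer stretch had a median of 10 and 485 of them (36.3%) reached at least 12, close to the 343 targets outside the MYB56 list. The 17381 other genes outside the MYB56 list had a median of 3, and 694 of them (3.99%) reached at least 12. These other genes are in the table only because at least 1 of the 21 lists holds them, while a target of Zm00001d003176 could have none.

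**Figure D1:**
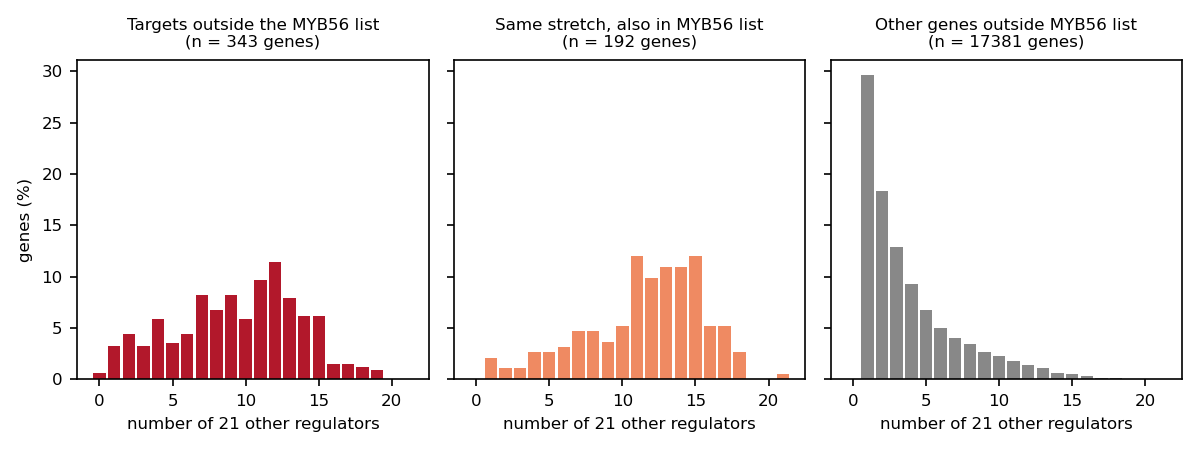
Share of genes (%, vertical axis) by the number of 21 other regulators that list them (horizontal axis), for the 343 targets outside the MYB56 list (left), the 192 targets of the same stretch in the MYB56 list (middle) and the 17381 other listed genes outside the MYB56 list (right). The medians are 10, 12 and 3.

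Of the 343 genes, 2 (0.58%) had no other regulator, Zm00001d039608 at row 470 and Zm00001d049605 at row 429. Among all 19787 listed genes, 23 were in none of the 21 lists. Such a gene is in the table only as a target of Zm00001d003176 or MYB56. A further 11 of the 343 genes (3.21%) were listed for exactly 1 of the other 21, against 26.4% of all listed genes. Some of these 11 are named here after their values were seen. G2 accounted for 3 of these (Zm00001d025237, Zm00001d033543 and Zm00001d046958) and MYB121 for 2 (Zm00001d011124 and Zm00001d034756). MYBR3, NAC109, NAC5, WRKY107, WRKY36 and Zm00001d032024 each accounted for 1. At the other end, Zm00001d018298, Zm00001d044106 and Zm00001d051484 were each listed for 19 of the 21.

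These most shared genes lacked different regulators. Zm00001d018298 was not listed for MYB121 or MYB21, Zm00001d044106 not for G2 or bHLH92, and Zm00001d051484 not for EREB115 or bHLH92. Zm00001d006677 followed with 18, and MYB21, Zm00001d033859 and bHLH47 were without it. Counting Zm00001d003176 itself, 12 of the 343 genes (3.5%) had at least 18 of the 23 regulators, against 0.96% of all listed genes. The 343 genes can have at most 22, since MYB56 is left out by the choice.

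Exact combinations of regulators seldom recurred among the 343 genes. They showed 333 distinct combinations of the other 21 regulators, and 324 genes had a combination of their own. The most frequent combination, G2 alone, was that of 3 genes. Very many combinations of 21 lists are possible, and no other set of genes was counted in this way. The count therefore does not set these genes apart, and it does not show which lists often held the same genes.

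**Figure D2:**
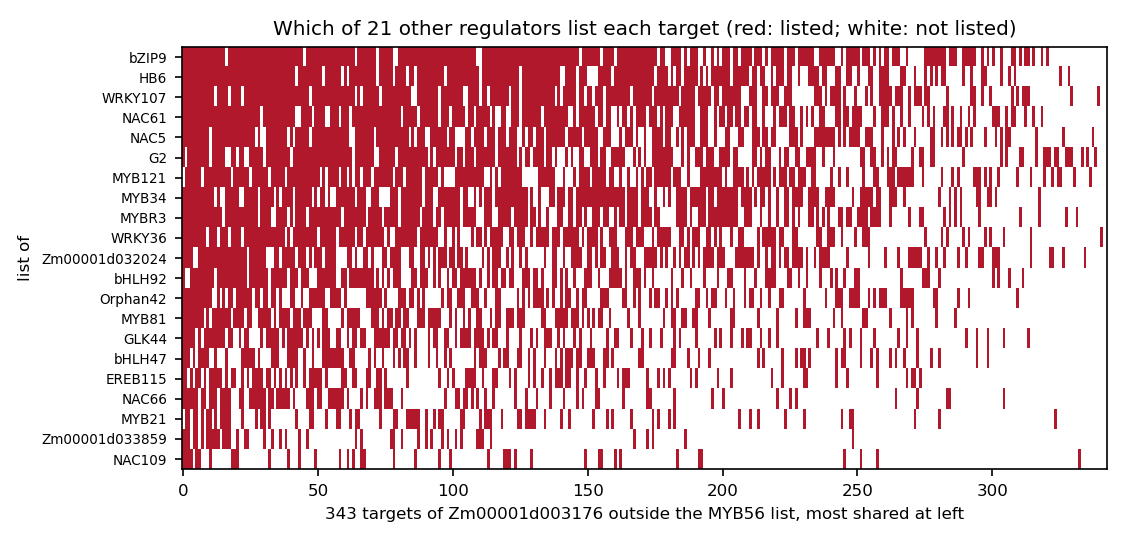
Each column is 1 of the 343 targets outside the MYB56 list, ordered from the most to the least shared, and each row is the list of 1 of 21 other regulators. Red marks a listed gene. The 3 genes at the left edge have 19 regulators, and the 2 at the right edge have none.

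By regulator, the lists of bZIP9, HB6 and WRKY107 held the most of the 343 targets. bZIP9, a basic leucine zipper factor, had 256 of them (74.6%), against 40.8% of all listed genes. HB6, a homeobox factor, and WRKY107 had 228 each (66.5%), against 33.7% of all listed genes for HB6 and 32.3% for WRKY107. These 256 genes were 3.17% of the bZIP9 list, and the 228 were 3.41% of the HB6 list and 3.56% of the WRKY107 list. Such lists are long, so they hold a large share of any set of listed genes, and the background share is the value to read them against.

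Every one of the 21 lists held a larger share of the 343 targets than of all listed genes. This is not particular to them. Taken outside the MYB56 list, the targets of each other regulator also stood above all listed genes in every list but its own. The lowest of these shares was 28.2%, against 28.1%, in the G2 list and 43.0%, against 40.8%, in the bZIP9 list. The median over the 21 lists was 49.0% of the 343 targets, against 21.5% of all listed genes. The ratio of the 2 shares ran from 1.48 for NAC61 to 3.83 for Zm00001d033859. Long lists leave less room for a high ratio, since a list with 41.9% of all genes cannot exceed 100% of the targets. The lists are not independent of one another in this count, because often-listed genes recur in many of them.

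The 4 NAC lists differed widely in length and in their share of the targets. NAC61 held 213 of the 343 (62.1%), against 41.9% of all listed genes, and NAC5 held 202 (58.9%), against 30.6%. NAC66 held 84 (24.5%), against 7.73%, a ratio of 3.17. NAC109, the shortest list, held 41 (12%), against 3.33%, a ratio of 3.59. Those 41 genes were 6.23% of the NAC109 list, while the 213 genes were 2.57% of the NAC61 list. Of the 343 targets, 61 (17.8%) were in none of the 4 NAC lists, against 43.6% of all listed genes, and 9 (2.62%) were in all 4, against 0.47%.

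Among the MYB and MYB-related factors, MYB121 held 200 of the targets (58.3%), against 32.8% of all listed genes. MYB34 held 199 (58.0%), against 22.2%, and MYBR3, tested in the same batch as MYB34, held 195 (56.9%), against 21.5%. MYB81 held 122 (35.6%), against 14.5%, and MYB21 held 73 (21.3%), against 8.96%. For MYB34 and MYBR3 the ratios were 2.61 and 2.64, above the 1.78 of MYB121. None of these 5 lists held 49 of the targets (14.3%), against 48.7% of all listed genes, and all 5 held 21 (6.12%), against 1.66%.

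WRKY36, from another batch than WRKY107, held 177 of the targets (51.6%), against 23.6% of all listed genes. Both WRKY factors listed 142 targets (41.4%), against 14.9% of all listed genes. These were 80.2% of the targets listed for WRKY36 and 62.3% of those listed for WRKY107. WRKY36 alone of the pair had 35, WRKY107 alone had 86, and 80 (23.3%) were in neither list, against 59.0% of all listed genes. The gene of WRKY107 itself is among the 343 targets and that of WRKY36 is not.

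G2, the Golden2 factor of chloroplast development, held 200 of the targets (58.3%), against 28.1% of all listed genes. GLK44, named as a Golden2-like factor, held 119 (34.7%), against 11.2%, a ratio of 3.1. Both listed 74 targets (21.6%), against 5.85% of all listed genes. These were 62.2% of the targets listed for GLK44 and 37.0% of those listed for G2. GLK44 is 1 of the factors whose batch Zm00001d003176 may share. The G2 libraries stood in 2 batches, and the G2 rows form 4 stretches, against at most 2 for any other of the 21 lists. Of the 5569 G2 edges 1771 are entered 2 times, and with those edges alone G2 held 24.2% of the targets, against 8.95% of all listed genes.

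The basic helix-loop-helix factors bHLH92 and bHLH47 held fewer targets. bHLH92 had 146 (42.6%), against 18.6% of all listed genes, and bHLH47 had 100 (29.2%), against 14.5%. Both listed 48 targets (14%), against 5.26% of all listed genes, and 145 (42.3%) were in neither list, against 72.2% of all listed genes. These 48 were 48.0% of the targets listed for bHLH47 and 32.9% of those listed for bHLH92.

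The remaining lists were those of Zm00001d032024, Orphan42, EREB115 and Zm00001d033859. Zm00001d032024, itself a target, held 168 of the 343 (49.0%), against 23.7% of all listed genes. Orphan42 held 134 (39.1%), against 20.2%, and EREB115, named as an ethylene-responsive element binding factor, held 92 (26.8%), against 13.9%. Zm00001d033859 held 44 (12.8%), against 3.35%. Those 44 genes were 6.64% of its list, the largest share of any of the 21 lists.

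The targets of each other regulator outside the MYB56 list were then taken in the same way. These sets are not alike. Of the 1870 targets of Zm00001d003176, 343 remain, all from 1 of its 2 stretches. NAC109 keeps 448 of 658 and Zm00001d033859 keeps 422 of 663. For each of the 21 lists, the share of the 343 targets was set beside the shares of the targets of the other 20 regulators. The 343 targets had the highest of these 21 shares in 5 lists, those of bZIP9, HB6, WRKY107, G2 and Zm00001d032024. In the G2 list their 58.3% stood beside a range of 28.2% to 52.2% and a median of 37.2% for the other 20. With only the G2 edges entered 2 times their share was 24.2%, and the place was not taken again. In the bZIP9 list their 74.6% stood beside 72.7% as the highest of the other 20. These 2 values were 66.5% and 61.1% for HB6, and 66.5% and 61.2% for WRKY107. In the Zm00001d032024 list they were 49.0% and 46.0%.

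In the other 16 lists at least 1 regulator stood higher. The MYB34 list held 58.0% of the 343 targets, against 88.6% of the targets of NAC109, and MYB34 and NAC109 share a batch. The MYB21 list held 21.3% of the 343 targets, against 53.6% of those of Zm00001d033859. The lowest place of the 343 targets was the sixth of 21, in the EREB115 list. In all 21 lists they were above the median of the other 20.

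**Figure D3:**
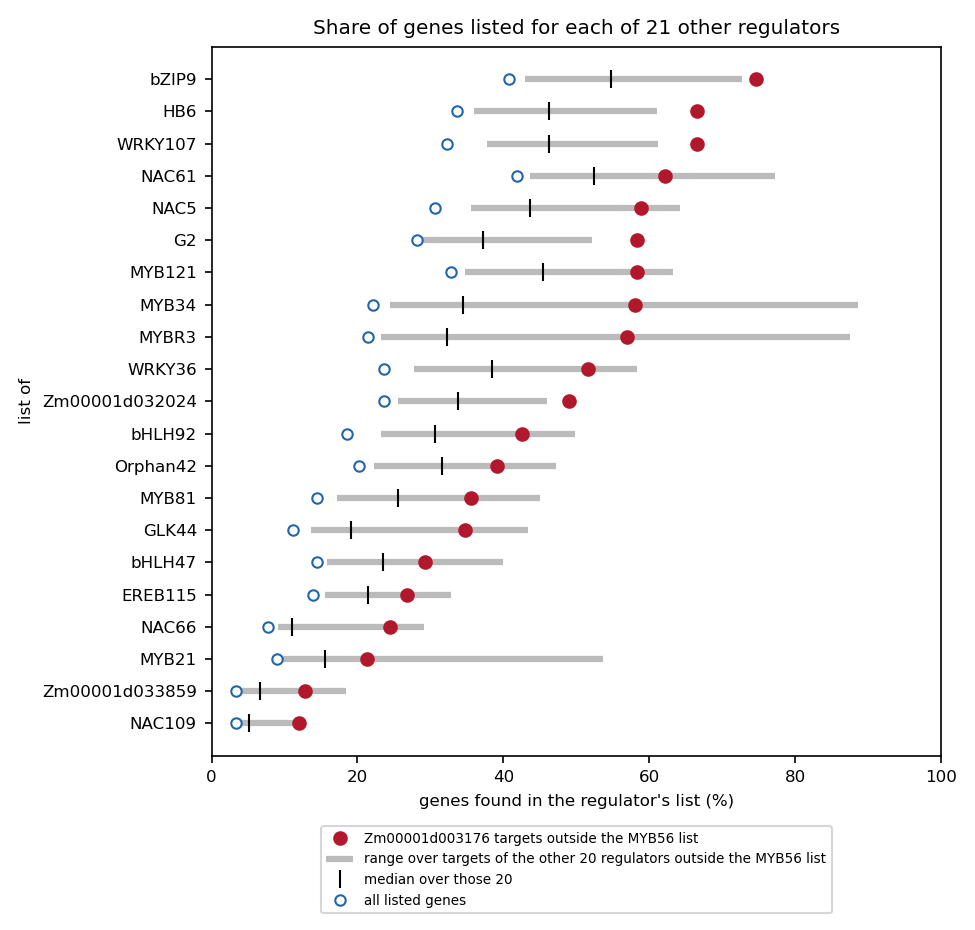
For the lists of 21 regulators (rows), the share of genes found in the list (%, horizontal axis). Red points are the 343 targets of Zm00001d003176 outside the MYB56 list, grey bars the range over the corresponding targets of the other 20 regulators with their median as a tick, and open blue points all 19787 listed genes. The red point lies right of the grey bar for bZIP9, HB6, WRKY107, G2 and Zm00001d032024.

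Sharing went together with the length of a list. Over the 22 regulators other than MYB56, targets outside the MYB56 list had between 4.63 other regulators on average for NAC61, with 6974 such targets, and 10.0 for Zm00001d033859, with 422. Zm00001d003176 came second with 9.39 ± 4.3 (SD over 343 genes), followed by NAC109 with 8.95 and 448 targets. The 3 regulators with the fewest such targets were thus the 3 with the highest means. For Zm00001d003176 the small number follows from the choice, since its full list has 1870 targets. By the median, Zm00001d003176 and Zm00001d033859 both had 10, NAC109 had 9, and GLK44, MYB21 and MYB81 had 8. At least 12 other regulators were reached by 36.4% of the targets of Zm00001d003176, by 41.7% of those of Zm00001d033859 and by 29.0% of those of NAC109. The part of list length in the high sharing of the 343 targets was not tested.

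**Figure D4:**
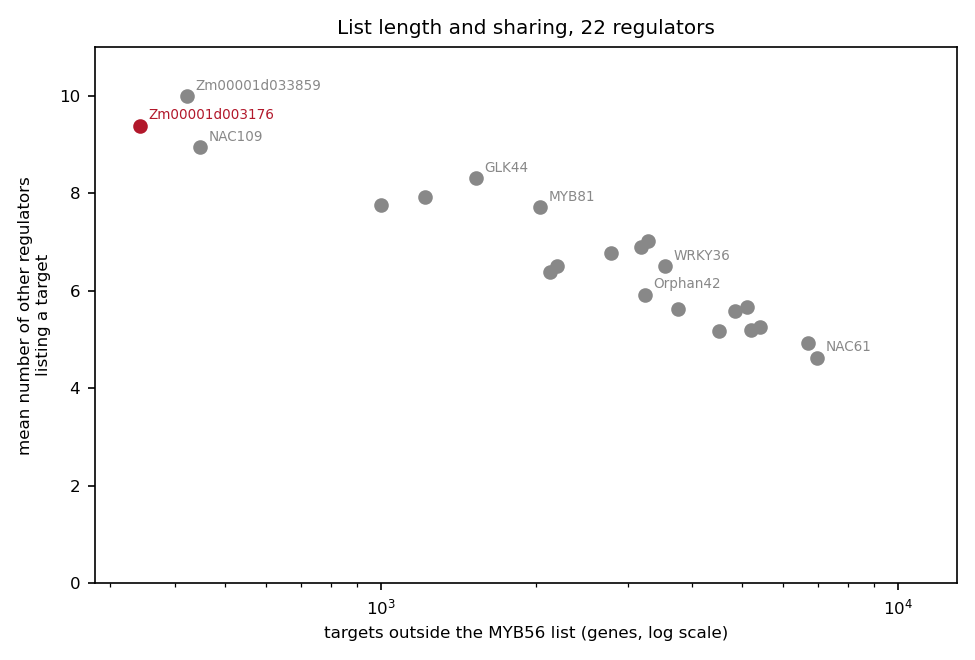
Each point is 1 of 22 regulators, with its number of targets outside the MYB56 list (horizontal axis, log scale) and the mean number of other regulators, of 21, that list such a target (vertical axis). Zm00001d003176 (red) has the fewest such targets, 343 of its 1870, and a mean of 9.39, between Zm00001d033859 with 10.0 and NAC109 with 8.95.

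At most 3 of the other 21 regulators listed 39 of the targets (11.4%), against 55.1% of all listed genes. G2 listed 15 of them (38.5%), bZIP9 and MYB121 listed 8 each (20.5%), WRKY107 listed 7 and NAC61 listed 6. EREB115, MYB81, bHLH47 and Zm00001d033859 listed 0 of the 39. At the other end, bZIP9 listed 117 of the 125 genes with at least 12 regulators (93.6%), HB6 listed 115 (92.0%) and NAC109 listed 28 (22.4%). HB6 listed 4 of the 39 least shared genes, fewer than G2, and more of the 125 most shared genes than G2 with 105. The lists differ in length, with 8080 genes for bZIP9, 6677 for HB6, 5569 for G2 and 658 for NAC109. Both groups were cut from the same lists that are counted here, so these are descriptions. How many of all listed genes with at most 3 or at least 12 regulators stand in each list was not counted. The counts therefore do not set the targets apart from other genes that are shared as little or as much.

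The place of the targets within other lists was uneven. For 14 of the other 21 regulators the list stands in 2 stretches of rows without a gene in common, 1 of which holds the regulator's own gene. No header or label says what separates such stretches, and no meaning is given to them here. All 343 targets stand in the stretch of Zm00001d003176 that holds its own gene. In the NAC5 list, 97 targets (28.3%, against 7.8% of all listed genes) stood in the stretch with NAC5 itself and 105 (30.6%, against 22.7%) in the other. The stretch with NAC5 thus held 48.0% of the targets in the list, against 25.5% of the whole list.

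Among lists with more of the targets in the stretch with the own gene, NAC61 and Orphan42 had the next largest differences. The NAC61 stretch with its own gene had 140 targets (40.8%, against 20.9% of all listed genes) and the other had 73 (21.3%, against 21%). The first held 65.7% of the targets in the list, against 49.9% of the whole list. For Orphan42 these stretches had 105 (30.6%, against 13.0%) and 29 (8.45%, against 7.27%), and the first held 78.4% of the targets in the list, against 64.1% of the list. In both lists the stretch without the own gene held the targets at a share near that of all listed genes.

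In 10 of the 14 lists the stretch with the own gene held a larger share of the targets than of the list, and in 4 a smaller share. Among the 4 were bHLH92 with 87.7% against 90.0%, bZIP9 with 52.7% against 57.9%, and Zm00001d033859 with 25% against 39.4%. For Zm00001d033859 this rests on 44 targets, 11 (3.21%, against 1.32% of all listed genes) in the stretch with its own gene and 33 (9.62%, against 2.03%) in the other. For HB6 the shares were 24.1% and 24.1%, smaller only beyond the printed digits. For GLK44 the shares were 55.5% and 47.4%, and for WRKY107 36.8% and 33.0%.

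**Figure D5:**
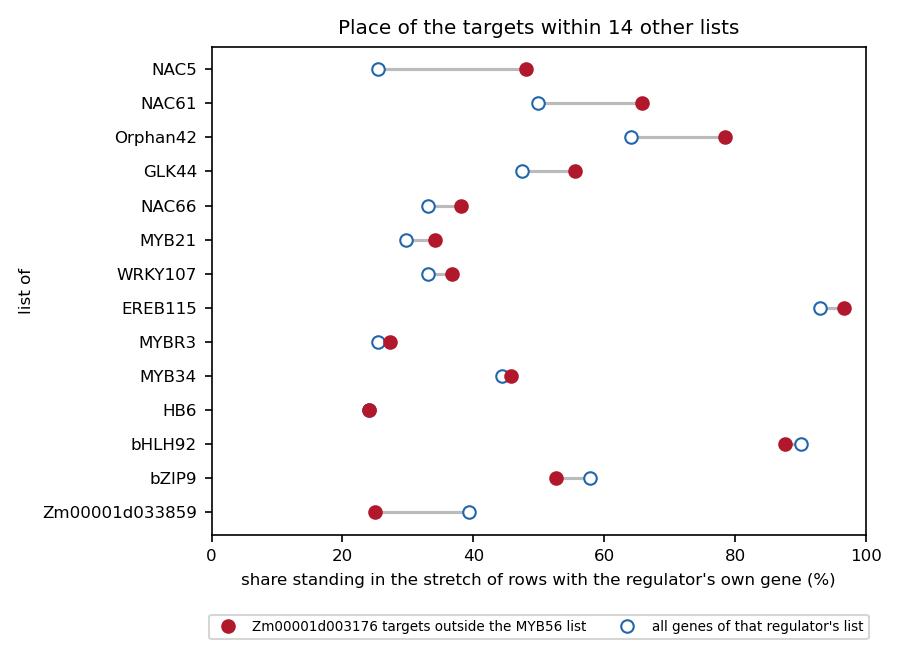
For 14 regulators with 2 stretches of rows, the share standing in the stretch with the regulator's own gene (%, horizontal axis), for the targets of Zm00001d003176 outside the MYB56 list (red) and for the regulator's whole list (open blue). The largest gap is that of NAC5, 48.0% against 25.5%, and the points for HB6 both lie at 24.1%.

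Within the stretch of Zm00001d003176, targets further down were shared with somewhat fewer regulators. The median number of other regulators was 11 in the top part of the rows, 10.5 in the middle part and 9 in the bottom part. At least 12 regulators listed 39 of the 89 targets in the top part (43.8%), 51 of the 118 in the middle part (43.2%) and 35 of the 136 in the bottom part (25.7%).

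Genes with consecutive identifiers formed 5 pairs among the 343 targets, and no run of 3. They are named here after their values were seen. Zm00001d049418 and Zm00001d049419 were listed for the same 14 of the other 21 regulators. Zm00001d019227, with 14, and Zm00001d019228, with 15, had 13 of them in common, among them G2, GLK44, HB6 and both WRKY factors. Zm00001d027947 and Zm00001d027948 had 15 and 11 regulators, 10 of them in common. Zm00001d013809 and Zm00001d013810 had 13 and 8, with 6 in common. Zm00001d011124, with 1 regulator, and Zm00001d011125, with 4, had MYB121 in common. Near-identical neighbouring genes can share reads in counting, and whether these pairs are such copies was not tested. Consecutive pairs among all listed genes, and the regulators that other pairs of targets have in common, were not counted. The values are therefore not shown to be particular to these genes or to neighbours.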

How the data were processed

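The authors deposited 1 table of text identifiers, a regulator, a target and both joined, without a count, score or p-value. The submitters' processing notes name B73 RefGen_v4 as the build and featureCounts and edgeR as tools. Versions, thresholds and the joining of batches and nitrogen conditions are not given. Depth per library is unknown. Per the labels' protocols, libraries were made with the Lexogen QuantSeq kit, which reads the 3' end of messenger RNA, so a list can miss genes whose annotated 3' end is wrong.

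Of the 94256 rows, 92485 are distinct edges, and each counted 1 time. A stretch is a series of consecutive rows of 1 regulator; the table has 42. The background is the 19787 genes with at least 1 regulator. Genes were named by a rule: regulators among the targets, targets of none of the other 21 regulators, the 4 most shared, and the first and last by row. Pairs with consecutive identifiers and genes of a single other regulator were named after their values were seen. Keyword gene lists could not be applied, since the reference table (Zm-B73-REFERENCE-NAM-5.0) matched 0 of the 343 targets. The targets, lists and rules were chosen with earlier results of these data known. Whether replicates came from separate preparations is not given. On simulated lists of 2000 genes, 100 of 100 planted targets were recovered. This checks the counting of lists only, and not whether a listed target is a true one. Python 3.11.15, numpy 2.4.6, pandas 2.3.3, scipy 1.17.1 and matplotlib 3.10.9 were used.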

Additional observations from a re-analysis of the deposited data

How the results depend on the processing

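The number of targets depends on how the MYB56 list is removed. It was 343. With only the longer stretch removed it was 535, and with nothing removed 1870. With only the MYB56 stretch that holds its own gene removed it was 1387, and with only the other MYB56 stretch removed 826. All but the first are higher by construction. The median of 10 other regulators was 11 with the 535 genes of the shorter stretch, 9 with G2 edges that stand 2 times, and 9 to 10 as each of 21 lists was left out. The median share over lists, 49.0%, was 50.8% with the shorter stretch and 42.6% with those G2 edges. The median ratio of targets to background, 2.07, was 1.66 among genes with 2 or more regulators. Targets of at least 12 other regulators numbered 125, 229 at a minimum of 8, a lower minimum by construction, and 96 without the NAC61 list. The place of Zm00001d003176 by sharing was 1, tied with Zm00001d033859, by the median and 2 by the mean. Leaving out the own gene, and backgrounds outside the MYB56 list (ratios of 2.35, and of 2.42 without the targets), were chosen after seeing the data. With the shorter stretch in place of the 343 targets, the shares were 57.8% in place of 51.6% for WRKY36, 43.6% in place of 35.6% for MYB81, 27.5% in place of 21.3% for MYB21 and 17.6% in place of 12.8% for Zm00001d033859. Leaving out replicates was not run, and no paired analysis was possible because edges carry no library. Unknown depth limits which edges could be listed.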
